A study of Arabidopsis thaliana with 24 samples.

Results

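Germinating seed of the *Arabidopsis thaliana* mutant tim17-1 was compared with wild-type Col-0 seed (WT) after 24 h in the light. The comparison rests on 6 of the study's 24 arrays, 3 of tim17-1 and 3 of WT, chosen by genotype and stage as the sample titles give them. Each array carried 22746 probe sets that were not controls, and all of them were tested. The labels name the mutant *Attim17-1*, in the Col-0 background, and give no more about the allele. In both genotypes 80 mg of sterilised seed was plated on MS medium, kept for 48 h in the dark at 4 °C to break dormancy (stratification), and moved for 24 h to continuous light of 100 µE per square metre and second at 22 °C (24 h SL). The other 3 stages of the study, dry seed (0 h), seed at the end of stratification (48 h S) and seed after 6 h of light (6 h SL), serve here to show where the 24 h difference stands. RNA came from seed as a whole, so fewer cells of a type and less RNA per cell cannot be told apart.

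TIM17 is a channel subunit of the translocase that carries precursor proteins across the inner membrane of mitochondria. In a germinating seed, transcripts stored during maturation are broken down, among them those of late embryogenesis abundant (LEA) proteins, which protect the dry embryo. Transcripts for cell wall loosening and, in the light, for photosynthesis then accumulate as the root emerges and the cotyledons green.

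After 24 h of light, a part of the LEA genes was higher in tim17-1 seed than in WT seed, and a part of the photosynthesis genes and a few cell wall genes were lower. Of the LEA and desiccation genes, 12 of 31 measured were higher in tim17-1 and 1 was lower. None of the 8 measured light-harvesting, photosystem and plastid ATP synthase genes was higher and 4 were lower, as were 2 of 3 Calvin cycle genes. Among 31 expansin and xyloglucan genes 5 were lower and 0 higher. Differences are given as the log2 difference of intensity + 16, tim17-1 minus WT, with the standard error of a linear model over all arrays. A probe set was called where limma's Benjamini-Hochberg adjusted p over all 22746 was under 0.05. Over all probe sets 4.32% were called (983), 1.59% as higher in tim17-1 (362) and 2.73% as lower (621). The counts of list members stand beside these shares as a description. The lists were chosen with earlier results of these data known, so an excess over the shares is not a test. Most lists were measured only in part. Measured were 31 of 45 listed LEA genes, 8 of 63 light-harvesting and photosystem genes and 3 of 19 Calvin cycle genes. The same held for 31 of 83 expansin and xyloglucan, 7 of 25 storage and oil body and 3 of 21 oil mobilisation genes.

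The differences were mostly moderate in size. The median size was 0.39 log2 units among the probe sets called higher and 0.48 among those called lower. A difference of at least 1 log2 unit was called for 3 probe sets that were higher (0.0132%) and 45 that were lower (0.198%). The values of the 2 genotypes did not overlap for 900 of the 983 called probe sets, against 16.4% of all probe sets. Of the called probe sets, 485 carry 1 annotated gene each, 205 of the higher and 280 of the lower. With cyclic loess scaling between the arrays, 254 were higher and 757 lower, so the share of higher calls depended on the scaling. When the model held the 6 arrays of 24 h SL alone, limma called 4 probe sets, all lower, and 2529 had an unadjusted p under 0.05. Without WT replicate 1 the count of higher probe sets was 186, and without tim17-1 replicate 1 or 3 it was 214 or 225. The calls below rest on a spread estimated over all 24 arrays, pooled over the stages. Genes that were dim at the earlier stages varied little there. The SD of *XTH18* in tim17-1, for example, was 0.65 in dry seed and 68.5 at 24 h, in intensity units. For such genes, many of them lower in tim17-1, the standard errors and p-values given can be too small for the spread at 24 h.

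**Figure D1:**
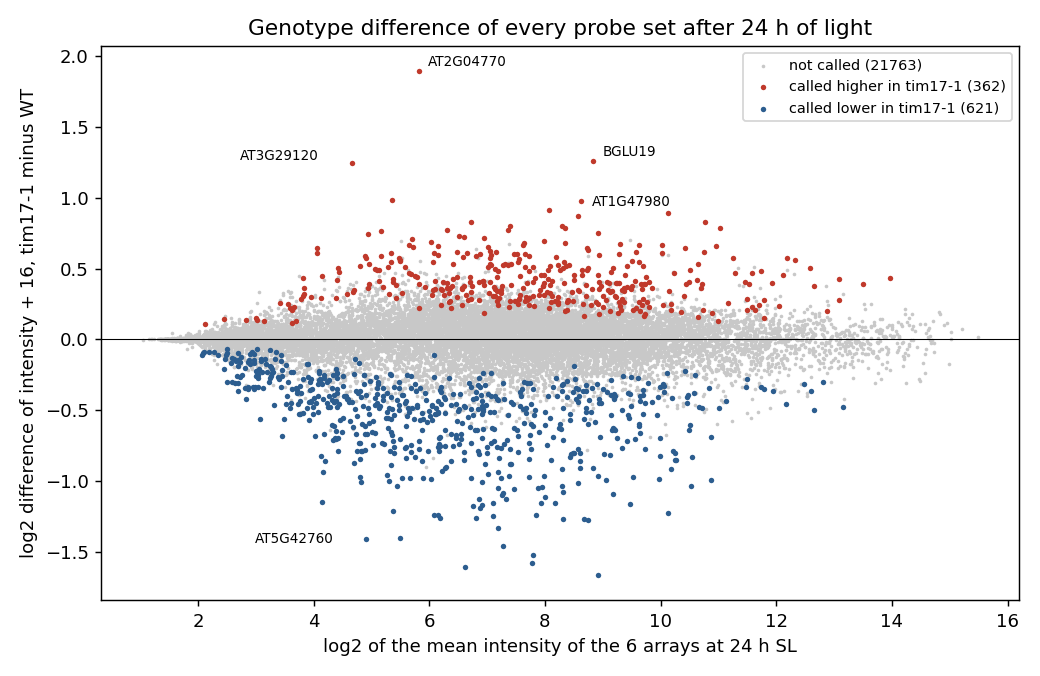
Log2 difference (tim17-1 minus WT, intensity + 16) of each of the 22746 probe sets after 24 h of light against the log2 of its mean intensity over the 6 arrays, with called probe sets in red (higher in tim17-1) and blue (lower). The 621 lower probe sets reach -1.66, and 3 of the 362 higher ones pass 1, among them *AT2G04770* and *BGLU19*.

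The arrays were of like quality. Their median intensities lay between 35.42 and 36.44, and 44.2% to 44.5% of probe sets were over 64. The root mean square difference between pairs of replicate arrays was 0.158 to 0.168 on the log2 scale in tim17-1 and 0.131 to 0.18 in WT. For 1 ubiquitin control pair, the 3′ probe set minus the 5′ one gave a log2 difference of 0.05, 0.036 and 0.264 in tim17-1 and -0.02, -0.078 and 0.061 in WT. Another ubiquitin pair gave 1.35 to 1.48 in tim17-1 and 1.33 to 1.51 in WT. The actin pair gave 1.53 to 1.70 in tim17-1 and 1.53 to 1.61 in WT. The size of the 3′ excess thus depended on the pair, and the genotypes overlapped in each of these. The number of arrays limits the precision of every value below. The labels do not say whether the 3 samples of a group came from separate seed lots, and each p-value reflects only how far these samples spread, which could be technical spread. Transcripts of *TIM17-1* and its homologs were not analysed here, which leaves the genotype labels without a check on the target itself.

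The LEA and desiccation list had a median difference of 0.25, against 0.0017 over all probe sets. Its largest rise was that of *AT1G47980*, with intensities of 526, 501 and 553 in tim17-1 and 188, 261 and 351 in WT (0.98 ± 0.143, adjusted p = 0.000332). *LEA* (AT2G21490), which encodes a dehydrin, a hydrophilic protein that accumulates in drying tissue, had 1696, 1647 and 1671 in tim17-1 and 955, 862 and 1448 in WT (0.65 ± 0.133, adjusted p = 0.00679). *AT5G44310* had 3089, 2988 and 2663 in tim17-1 and 1878, 1657 and 2356 in WT (0.58 ± 0.0948, adjusted p = 0.00102). In these 3 genes every tim17-1 array lay above every WT array.

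*AT1G72100* (0.61 ± 0.131), *AT3G17520* (0.57 ± 0.111) and *AT2G23110* (0.47 ± 0.0969) were higher as well. *AT3G53040* (0.68 ± 0.148, adjusted p = 0.0105) was called, but not without WT replicate 1 (adjusted p = 0.0671) or WT replicate 2 (adjusted p = 0.0546). The other 5 higher members, *LEA4-5*, *AT4G36600*, *AT3G15670*, *M10* and *AtLEA4-1*, differed by 0.39 to 0.50. *AtLEA4-1* was the most abundant of the 12, at 13070 ± 432 in tim17-1 and 9996 ± 726 in WT (SD, n = 3 each). Of these genes *AT3G15670* no longer passed without any 1 of the arrays other than WT replicate 3, and *AT4G36600* without tim17-1 replicate 1 or 3 or WT replicate 1 or 2.

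The LEA member that went the other way, *AT2G03850*, had 38.8, 56.0 and 52.0 in tim17-1 and 95.4, 94.4 and 128 in WT (-0.91 ± 0.0853, adjusted p = 2.7e-06). Among members that were not called, *M17* (0.02, adjusted p = 1) and *AT4G21020* (0.18, adjusted p = 0.841) overlapped between genotypes, and *LEA18* (0.25, adjusted p = 0.0846) did not overlap. Of the 31 members, 8 had mean intensities under 16 in both genotypes, where a difference can hardly be seen on this scale.

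The WT arrays differed among themselves in these genes. WT replicate 3 had the highest of the 3 WT values in 12 of the 12 higher members, in 61.6% of all probe sets called higher and in 22.3% of all probe sets tested. Its part in the result was not tested. Without it 14 LEA members were higher, while without WT replicate 1 or 2 the count was 9 in each case, and over the fits that leave out 1 array it ran from 9 to 14. Without tim17-1 replicate 1, 2 members were lower in place of 1.

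**Figure D2:**
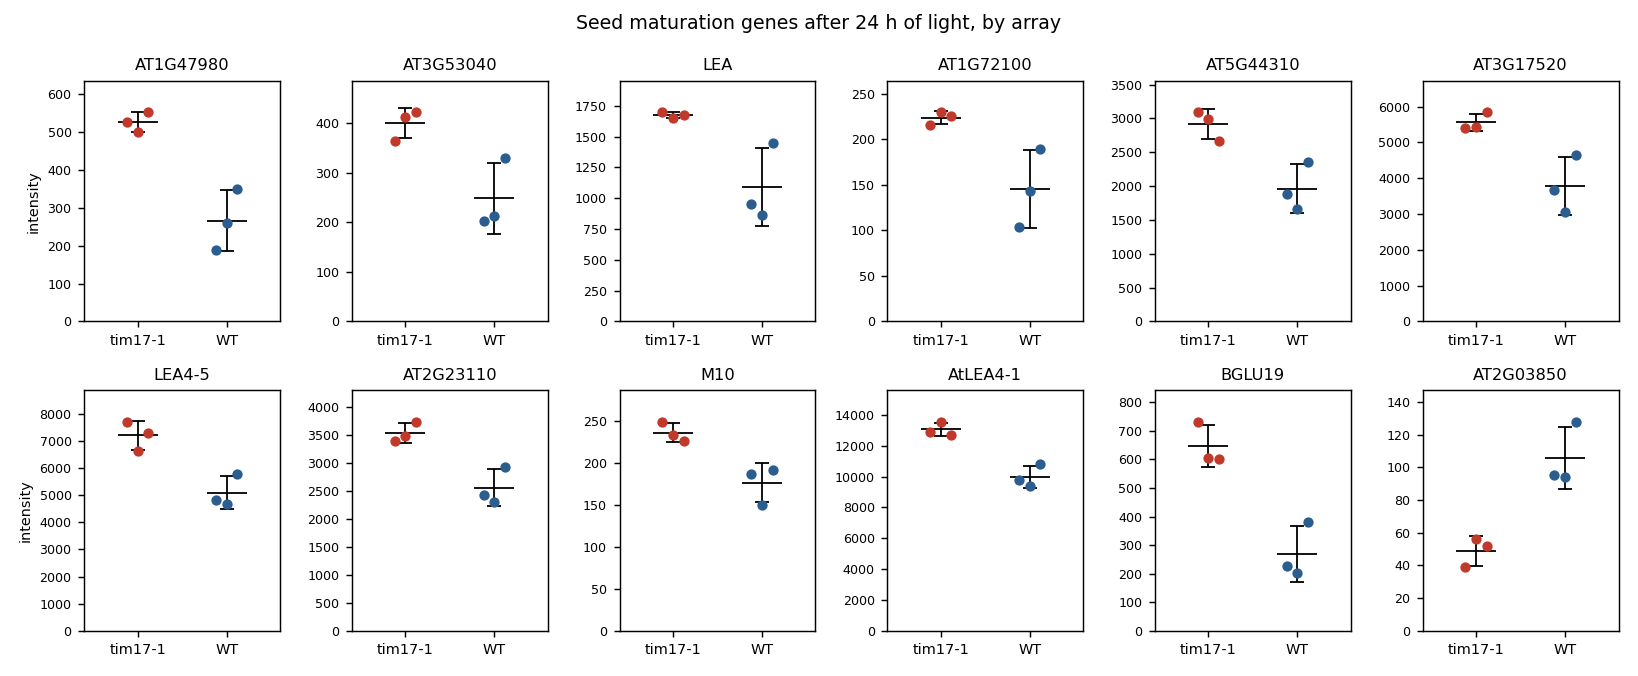
Intensity on each array after 24 h of light (points, linear axis from 0) for 11 genes called higher in tim17-1, 10 of them LEA genes, and for *AT2G03850*, which was lower. Bars give the mean ± SD of 3 arrays, and in the LEA genes shown that were higher the third WT array lies above the other 2.

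The abundance of these transcripts at earlier stages sets the difference in context. The median log2 level of the 31 LEA genes was 13.71 in tim17-1 and 13.65 in WT dry seed, 10.37 and 10.74 after stratification, 9.80 and 9.74 after 6 h of light, and 8.70 and 8.01 after 24 h. The 2 medians of a stage can fall on different genes, and the median difference of the members at 24 h was 0.25. *AT1G47980* averaged 11950 in tim17-1 and 11900 in WT dry seed, 3124 and 3090 after stratification, 3726 and 2325 after 6 h of light, and 526.5 and 266.7 after 24 h. The list's median and *AT1G47980* thus lay far below their dry seed level in both genotypes at 24 h. Not every member was dim by then, and the highest value of a member on an array of 24 h was 22485. The genotype difference at 24 h minus the mean genotype difference of the other 3 stages was tested for every probe set. It was positive and called for 9 LEA members and negative and called for 1, against 1.05% and 1.68% of all probe sets.

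The LEA difference was in part already present after 6 h of light. All 12 LEA genes that were higher at 24 h had positive differences at 6 h, with a median of 0.36, and limma called 3 of the 12 there, *AT1G47980* (0.68, adjusted p = 0.0253), *AT3G17520* (0.46, adjusted p = 0.0486) and *M10* (0.39, adjusted p = 0.00636), against 0.51% of all probe sets called higher at 6 h. After stratification 10 of the 12 had negative differences, and 4 of the 31 LEA genes were called lower, against 0.87% of all probe sets. When the 24 h difference was set against that of 6 h alone, 1 LEA gene was called, *AT2G03850*, which was below, against 0.4% of all probe sets called above and 1.13% below. The excess over 6 h was positive in all 12 higher genes, with a median of 0.22, but was called in none of them, and for *AT1G47980* it was 0.30 (adjusted p = 0.84).

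Related seed lists gave few calls. Of 7 dehydrin and cold response genes 2 were higher, *LEA*, which is on both lists, and *LTI30*, another dehydrin gene. *LTI30* had 91.9, 86.0 and 76.7 in tim17-1 and 48.0, 42.5 and 60.6 in WT (0.61 ± 0.13, adjusted p = 0.0094), and its call was lost without tim17-1 replicate 1 (adjusted p = 0.0543) or WT replicate 2 (adjusted p = 0.0507). *COR47* (adjusted p = 0.997) and *COR27* (adjusted p = 0.875) overlapped between genotypes. The list had a median of 0.14.

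None of 7 seed storage and oil body genes was called, although all 7 differences were positive (median 0.18, range 0.09 to 0.32). At an unadjusted p under 0.05 limma had 1 of them higher, and cyclic loess scaling gave 0 calls. *PAP85*, which encodes a vicilin-type storage protein, had 1485, 1685 and 1236 in tim17-1 and 1006, 1004 and 1676 in WT (0.29, adjusted p = 0.388). Here too WT replicate 3 was the highest WT array, and without it 3 of the 7 were higher. None of 3 oil mobilisation genes was called, namely *ICL*, which encodes isocitrate lyase of the glyoxylate cycle (adjusted p = 0.373), the lipase gene *SDP1* (0.20, adjusted p = 0.0741) and *AIM1* of peroxisomal β-oxidation (adjusted p = 0.808). Without tim17-1 replicate 2, *ICL* and *SDP1* were called higher, and 1 of the 3 had an unadjusted p under 0.05 with all arrays.

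*BGLU19* (AT3G21370), a β-glucosidase gene, had 732, 604 and 603 in tim17-1 and 226, 201 and 382 in WT (1.26 ± 0.192, adjusted p = 0.00051), with no overlap. Its level averaged 33510 in tim17-1 and 32750 in WT dry seed, 7254 and 7790 after stratification, and 6461 and 3558 after 6 h of light, where it was already called higher (0.89, adjusted p = 0.0283). *AT2G04770* had 90.02, 127 and 79.8 in tim17-1 and 14.9, 15.96 and 12.7 in WT (1.89 ± 0.128, adjusted p = 5.75e-08), and its probe set may cross-hybridise to related transcripts by its type. *AT2G04770* differed from *BGLU19* in its course, with means of 9.15 and 7.18 in dry seed, 18.2 and 7.84 after stratification, and 19.5 and 10.4 after 6 h of light.

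Genes were named by a rule that required the call to hold without each 1 of the 6 arrays and with cyclic loess scaling. Of the 15 genes with the largest rises so named, 12 averaged over 100 in WT dry seed, and in those 12 both genotypes were below their dry seed level at 24 h. *AT5G07330* had 2349.9, 2071 and 2305 in tim17-1 and 1119.6, 1137 and 1545 in WT (0.83 ± 0.129, adjusted p = 0.000624). *SIS*, a salt-induced gene for a serine-rich protein, had 822, 723 and 802 in tim17-1 and 455, 496 and 501 in WT (0.67 ± 0.135, adjusted p = 0.00572). The means of *SIS* in tim17-1 and WT were 14200 and 14340 in dry seed, 314 and 242 after 6 h of light, and 782 and 484 at 24 h. Its level thus rose between 6 h and 24 h in both genotypes. No WT array reached the lowest tim17-1 array in either gene.

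The other 10 rises lay between 0.71 and 1.24. They were *AT3G29120*, *AT4G20230*, *AT1G22600*, *AT4G31830*, *AT3G58450*, *AT4G33980*, *AT3G20340*, *AT2G25890*, *AT5G42290* and *AT5G18450*. *AT3G29120* stood apart in its course, with means of 90.5 in tim17-1 and 16.7 in WT dry seed, 104 and 31.1 after stratification, 110 and 22.9 after 6 h of light, and 41.9 and 8.54 after 24 h. It was called higher at each earlier stage, by 1.35 to 1.70, and its 24 h difference was smaller than the mean of those stages by an amount that was not called (-0.34, adjusted p = 0.19). Its probe set may cross-hybridise as well.

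Earlier levels were then counted over all called probe sets, using arrays of 0 h and 6 h SL. These arrays enter the spread on which the calls rest, and a probe set that is dim there adds little to it, so the shares are not independent of the calls. Of the 362 probe sets higher in tim17-1 at 24 h, 193 (53.3%) had been at least 1 log2 unit more abundant in WT dry seed than in WT seed after 6 h of light. The same held for 57 of the 621 lower probe sets (9.18%) and for 14.1% of all probe sets. A mean intensity of at least 1000 in WT dry seed was found for 51.1% of the higher, 3.38% of the lower and 8.96% of all probe sets. Of the lower probe sets 71.2% had a mean under 32 in both genotypes after 6 h of light, against 8.56% of the higher ones and 49.4% of all.

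These shares were also taken over the 10128 probe sets with a mean of at least 64 at 24 h, since dim probe sets are numerous. Of the higher ones among them 58.2% had been more abundant in WT dry seed than at 6 h, against 14.6% of the lower ones and 19% of all. A mean under 32 in both genotypes at 6 h was found for 1 of 292 higher probe sets (0.342%), for 151 of 321 lower ones (47%) and for 3.65% of all. The probe sets higher in tim17-1 were thus more often ones with a high dry seed level, and the lower ones more often ones that were dim after 6 h of light. These are shares of the lists, without a test.

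**Figure D3:**
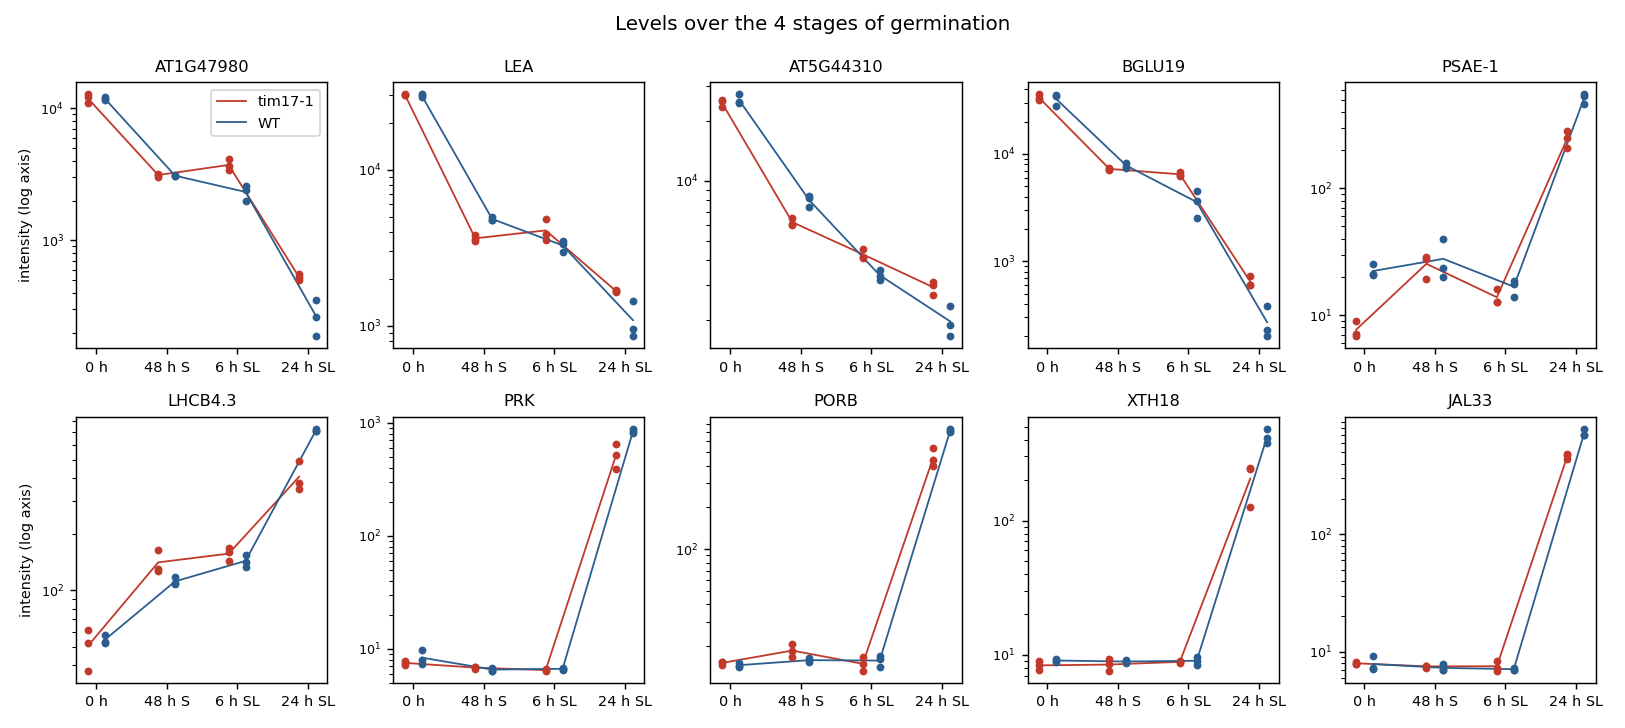
Intensity (log axis) on each array (points) and group means (lines) over the 4 stages of germination for tim17-1 (red) and WT (blue). *AT1G47980*, *LEA*, *AT5G44310* and *BGLU19* decline from dry seed in both genotypes and lie higher in tim17-1 at 24 h SL, whereas *PRK*, *PORB*, *XTH18* and *JAL33* have means under 20 up to 6 h SL and lie lower in tim17-1 at 24 h SL.

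The measured photosynthesis genes, a small part of those listed, formed the clearest group of lower transcripts. All 8 measured light-harvesting, photosystem and plastid ATP synthase genes had negative differences, with a median of -0.48. *PSAE-1* (AT4G28750), a subunit gene of photosystem I, had 249, 285 and 209 in tim17-1 and 549, 459 and 537 in WT (-1.02 ± 0.139, adjusted p = 0.00017). *LHCB4.3* (AT2G40100), a minor antenna protein gene of photosystem II, had 348, 489 and 377 in tim17-1 and 714, 710 and 727 in WT (-0.82 ± 0.125, adjusted p = 0.000548). For both genes the highest tim17-1 array lay below the lowest WT array.

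*LHCB4.2*, a close relative of *LHCB4.3*, had 147, 182 and 159 in tim17-1 and 252, 287 and 266 in WT (-0.67 ± 0.169, adjusted p = 0.0286). Its call was lost without any 1 array other than tim17-1 replicate 2 (adjusted p of up to 0.132). *PSAN*, another photosystem I subunit gene, had 189.6, 248 and 247 in tim17-1 and 277, 327 and 312 in WT (-0.40 ± 0.083, adjusted p = 0.00712). The photosystem II genes *PSBW* (-0.47, adjusted p = 0.0893) and *PSBY* (-0.49, adjusted p = 0.0549), the third antenna gene *LHCB4.1* (-0.25, adjusted p = 0.0631) and the ATP synthase gene *ATPC1* (-0.15, adjusted p = 0.471) were not called. In *LHCB4.1*, *PSBW* and *PSBY* the genotypes did not overlap, and 7 of the 8 genes were called lower with cyclic loess scaling.

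In the Calvin cycle, *PRK*, which encodes phosphoribulokinase, the enzyme that regenerates the acceptor of CO2, had 391, 653 and 515 in tim17-1 and 844, 815 and 878 in WT (-0.71 ± 0.104, adjusted p = 0.000316). *SBPASE*, for sedoheptulose bisphosphatase, had 1177, 1259 and 1107 in tim17-1 and 1566, 1761 and 1526 in WT (-0.45 ± 0.122, adjusted p = 0.0457). *RCA*, for Rubisco activase, had 2329.8, 2723 and 3054 in tim17-1 and 3624, 4069 and 3842 in WT (-0.51 ± 0.154, adjusted p = 0.0757). In all 3 genes every tim17-1 array lay below every WT array. The call of *SBPASE* was lost without any 1 array other than tim17-1 replicate 2 (adjusted p of up to 0.168), and with cyclic loess all 3 genes were lower.

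Of 7 genes of chlorophyll synthesis 1 was lower, *PORB*, a light-dependent protochlorophyllide oxidoreductase gene. It had 399, 531 and 437 in tim17-1 and 731, 707 and 695 in WT (-0.63 ± 0.0698, adjusted p = 1.73e-05). *CHLM*, *HEMB1* and *HEME2*, which act earlier in the pathway, overlapped between the genotypes with adjusted p of 0.86 to 1, and the list's median was -0.10. *AT1G74470*, a geranylgeranyl reductase gene by its annotation, which belongs to the isoprenoid list, had 967, 1304 and 1187 in tim17-1 and 1821, 1677 and 1754 in WT (-0.61 ± 0.093, adjusted p = 0.000549). The other 2 members of that list, *LYC* and *Z-ISO*, overlapped.

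Transcripts of the plastid genome were not called. Of 69 such probe sets 0 were called in either direction, 57 had negative differences, and the median was -0.14. At an unadjusted p under 0.05 limma had 7 lower and 0 higher, cyclic loess scaling gave 2 lower calls, and leaving out tim17-1 replicate 2 gave 4. *atpE*, a plastid ATP synthase gene, had 20701, 25185 and 21640 in tim17-1 and 25858, 27723 and 25759 in WT (adjusted p = 0.497). *rpl22* (adjusted p = 0.48) and *atpB* (adjusted p = 0.905) overlapped. Labelling of such transcripts, which largely lack a long poly(A) tail, may differ from that of nuclear ones, and this was not tested. Negative differences prevailed before 24 h too, in 64 of the 69 after stratification (median -0.27) and 59 after 6 h of light (median -0.16). In dry seed 37 were negative (median -0.02). The 24 h difference minus that of 6 h had a median of 0.03.

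The course over the stages differed within the photosynthesis genes, and some were lower in tim17-1 before 24 h. In dry seed the mean log2 level of the 8 light-harvesting, photosystem and plastid ATP synthase genes was 6.11 to 6.16 on the tim17-1 arrays and 6.36 to 6.40 on the WT arrays. It was 6.25 to 6.44 in tim17-1 and 6.30 to 6.47 in WT after stratification, with overlap, and 6.78 to 6.87 in tim17-1 and 6.88 to 6.96 in WT after 6 h of light. Of these 8 genes 1 was called lower in dry seed, *PSAE-1* (-0.69, adjusted p = 0.00656), against 2.33% of all probe sets, and 1 after 6 h, *ATPC1* (-0.34, adjusted p = 0.0471), against 0.769%. *RCA* was lower in dry seed as well (-1.20, adjusted p = 7.67e-05). *PRK* averaged 7.51 in tim17-1 and 8.36 in WT dry seed, 6.82 and 6.55 after stratification, and 6.48 and 6.65 after 6 h of light, before 520 and 846 at 24 h. *LHCB4.1* was present in dry seed at 1321 in tim17-1 and 1305 in WT, at 97.6 and 109.8 after stratification, and at 1280 and 1526 at 24 h. The genotype difference at 24 h was below that of the other stages for *PSAE-1* (-0.72, adjusted p = 0.0174), *LHCB4.3* (-0.92, adjusted p = 0.00103), *PRK* (-0.70, adjusted p = 0.00227) and *PORB* (-0.67, adjusted p = 7.6e-05). It was not called for *PSAN* (adjusted p = 0.053), *LHCB4.2* (adjusted p = 0.0799) or *SBPASE* (adjusted p = 0.445).

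**Figure D4:**
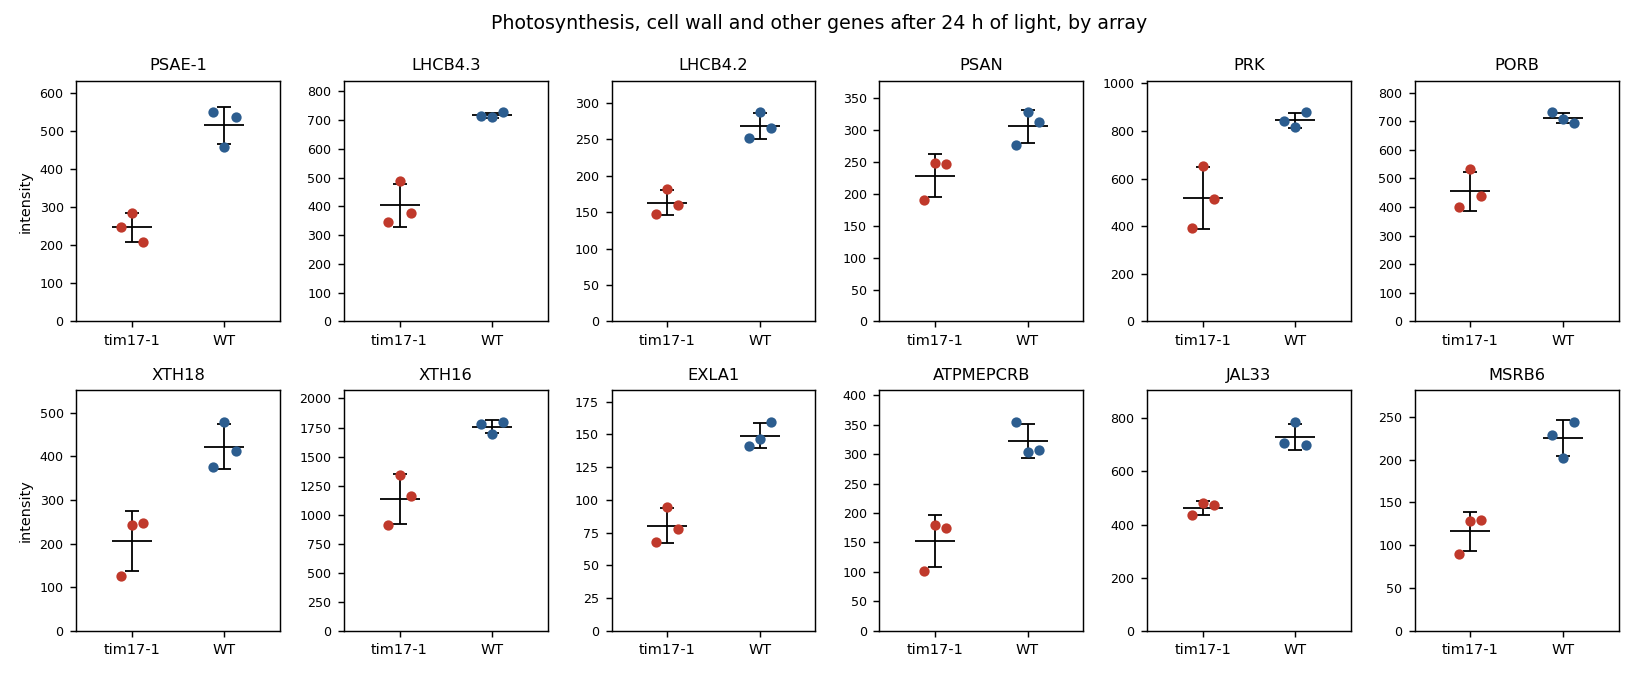
Intensity on each array after 24 h of light (points, linear axis from 0) for 12 genes called lower in tim17-1, with the mean ± SD of 3 arrays. In each panel the highest tim17-1 array lies below the lowest WT array.

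Of the expansin and xyloglucan genes, 5 were lower in tim17-1, and 2 of these, *XTH18* and *XTH32*, had been dim at every earlier stage. Members of the list were also called lower earlier, 2 of 31 in dry seed, 4 after stratification and 2 after 6 h of light. Over all probe sets 2.33%, 0.87% and 0.769% were lower at these stages. Against 6 h alone, the 24 h difference was above for 1 member and below for 1 (0.4% and 1.13% of all probe sets). *XTH18*, a xyloglucan endotransglucosylase gene, whose products cut and rejoin wall polymers, had 126, 244 and 246 in tim17-1 and 377, 479 and 411 in WT (-1.03 ± 0.151, adjusted p = 0.000332). Its mean was under 10 at the 3 earlier stages in both genotypes. *XTH32* (-0.87 ± 0.165, adjusted p = 0.00364) was also dim before, and averaged 13.9 in tim17-1 and 37.8 in WT at 24 h. *XTH16*, with 909.95, 1339 and 1160 in tim17-1 and 1777, 1698 and 1799 in WT (-0.64 ± 0.121, adjusted p = 0.0038), had been at 169 and 261 after 6 h of light.

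The expansin-like gene *EXLA1* (-0.79 ± 0.161) and *EXGT-A3*, another xyloglucan transferase gene (-0.39 ± 0.076), were lower as well. The most abundant members were not called. *XTH19* had 5883, 8242 and 7050.5 in tim17-1 and 8108, 6688 and 7572 in WT (adjusted p = 1), after 5085 and 5974 at the end of stratification. The expansin genes *EXPA9* (adjusted p = 1) and *EXPA8* (0.22, adjusted p = 0.123) overlapped too, and *EXPA8* averaged 6340 in tim17-1 and 5461 in WT. Of the 31 members 16 had means under 16 in both genotypes, and the list's median was 0.00. Without WT replicate 2, *EXPA8* was called higher.

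In pectin, the methylesterase gene *ATPMEPCRB* (AT4G02330) had 101, 179 and 175 in tim17-1 and 355, 304 and 307 in WT (-1.05 ± 0.141, adjusted p = 0.000148). It was the 1 lower gene of 6 measured, out of 158 on the pectin list, and 5 of the 6 had means under 16. Of 9 tubulin and actin genes, a list that also holds folding cofactors, 2 were lower. *TUB1*, a β-tubulin gene, had 783, 911 and 656 in tim17-1 and 1014, 1043 and 1122 in WT (-0.44 ± 0.0846, adjusted p = 0.00424). *TUB5* (-0.37 ± 0.0907, adjusted p = 0.0229) lost its call without tim17-1 replicate 1 or 3 or WT replicate 1 or 2 (adjusted p of up to 0.144), and *TUA6* and *TUB9* overlapped between genotypes. Cyclic loess scaling gave 4 lower calls on this list, and leaving out tim17-1 replicate 2 gave 3. The list's median was -0.18 at 24 h, but -0.20 after stratification and -0.25 after 6 h of light. Of the 9 genes 2 were called lower after stratification and 1 after 6 h, against 0.87% and 0.769% of all probe sets.

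The list of endoplasmic reticulum body genes and jacalin-related lectin genes had calls in both directions. These bodies store β-glucosidases used in defence. *BGLU19* was higher, as given above, and the jacalin-related lectin genes *JAL33* and *JAL34* were lower. *JAL33* had 434, 482 and 473 in tim17-1 and 706, 786 and 699 in WT (-0.64 ± 0.0435, adjusted p = 5.9e-08). *JAL34* had 2676, 2440.4 and 2748 in tim17-1 and 3059, 3450.3 and 3046 in WT (-0.28 ± 0.0536, adjusted p = 0.00417). *PYK10*, the main β-glucosidase of these bodies, had 12243, 15735 and 16984 in tim17-1 and 17017, 16965 and 17712 in WT (-0.21, adjusted p = 0.613). *NAI1*, for the transcription factor of the bodies (adjusted p = 0.369), and *NAI2* (adjusted p = 0.226) were not called.

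Of 20 β-glucosidase genes, 1 was higher, *BGLU19*, and 2 were lower, *BGLU40* (-0.25 ± 0.0432, adjusted p = 0.00155) and *BGLU15* (-0.14 ± 0.0359, adjusted p = 0.032). *BGLU40* averaged 43.2 in tim17-1 and 54.6 in WT, while *BGLU15* averaged 7.71 in tim17-1 and 10.1 in WT and lost its call without tim17-1 replicate 1 or 2 or WT replicate 1 or 2 (adjusted p of up to 0.186). Of the 20 members 14 had means under 16 in both genotypes.

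Redox and detoxification genes added a few falls. *GSTU25* (AT1G17180), a tau class glutathione transferase gene, had 68.9, 109 and 104 in tim17-1 and 206, 204 and 234 in WT (-1.08 ± 0.19, adjusted p = 0.00196). Its mean had been 36.3 in tim17-1 and 21.1 in WT after 6 h of light. *GSTU20* had 708, 759 and 676 in tim17-1 and 999.5, 872 and 961 in WT (-0.39 ± 0.0964, adjusted p = 0.0238), a call lost without tim17-1 replicate 1 or 3 or WT replicate 1 or 3 (adjusted p of up to 0.11). Of 13 glutathione transferase genes these 2 were lower and 0 higher, with a median of -0.13, and 4 were lower without tim17-1 replicate 2.

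Methionine sulfoxide reductases repair oxidised methionine in proteins, and their list was added after values had been seen. *MSRB6* had 90.3, 129 and 129.96 in tim17-1 and 229, 202 and 244 in WT (-0.88 ± 0.135, adjusted p = 0.00055). *MSRB9* had 98.5, 108 and 134 in tim17-1 and 207, 179 and 213 in WT (-0.74 ± 0.0828, adjusted p = 1.94e-05). The other 3 of 5 measured members, *MSRB3*, *MSRB5* and *MSRA5*, were not called, and *MSRB3* was 0.17 higher (adjusted p = 0.487).

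Since the mutation concerns a mitochondrial translocase, the transcripts of mitochondrial functions were examined by list. None of 8 measured genes of mitochondrial protein import, out of 30 listed, was called. Their differences lay between 0.02 and 0.22 with a median of 0.07. *MPPBETA*, a subunit gene of the processing peptidase, had 4967, 4521 and 5206 in tim17-1 and 4454, 5021 and 4518 in WT (adjusted p = 0.991). *AT1G50400*, listed with the outer membrane components, had the largest difference of the 8 (0.22 ± 0.105, adjusted p = 0.382). At an unadjusted p under 0.05 limma had 0 of the 8, and without WT replicate 3 it called 1 higher.

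None of 11 nuclear genes of the respiratory chain list was called by limma, while 2 had an unadjusted p under 0.05, both with negative differences. Cyclic loess scaling gave 2 lower calls, leaving out tim17-1 replicate 2 also gave 2, and leaving out WT replicate 3 gave 1. The list's keyword matches brought in *NdhS*, *NdhL* and *NdhN*, subunit genes of the chloroplast NDH complex, of which *NdhS* had the most negative value (-0.62, adjusted p = 0.0513). The cytochrome c genes *CYTC-1* and *CYTC-2* and the complex II gene *SDH1-1* overlapped between genotypes, and *SDH2-1*, also of complex II, missed the threshold (-0.21, adjusted p = 0.0878). Of 5 alternative pathway genes limma called 0, also at an unadjusted p under 0.05 and with cyclic loess, among them the NAD(P)H dehydrogenase genes *NDC1* (adjusted p = 1), *NDB2* (adjusted p = 1) and *NDB3* (-0.19, adjusted p = 0.722).

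Of 16 transcripts of the mitochondrial genome, 10 had means under 16 in both genotypes. Of the 16, 1 was lower, *cox2*, for a subunit of cytochrome c oxidase. It had 41.4, 34.4 and 38.8 in tim17-1 and 50.4, 55.9 and 45.6 in WT (-0.30 ± 0.0726, adjusted p = 0.0232), a call lost without tim17-1 replicate 2 or 3 or WT replicate 1 or 2 (adjusted p of up to 0.111). *cox1*, for another subunit of the same complex, had 105, 127 and 136 in tim17-1 and 89.2, 90.7 and 84.4 in WT (0.41 ± 0.124, adjusted p = 0.0785). Neither *nad4* nor *ccb382* was called. Of 5 genes on a list of mitochondrial stress response 1 was called, *GSTU25*, which was lower. The others included *AT5G51440* (-0.32, adjusted p = 0.165), *AT2G21640* (adjusted p = 1) and *AT2G41730*, which was under 8 on all 6 arrays.

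**Figure D5:**
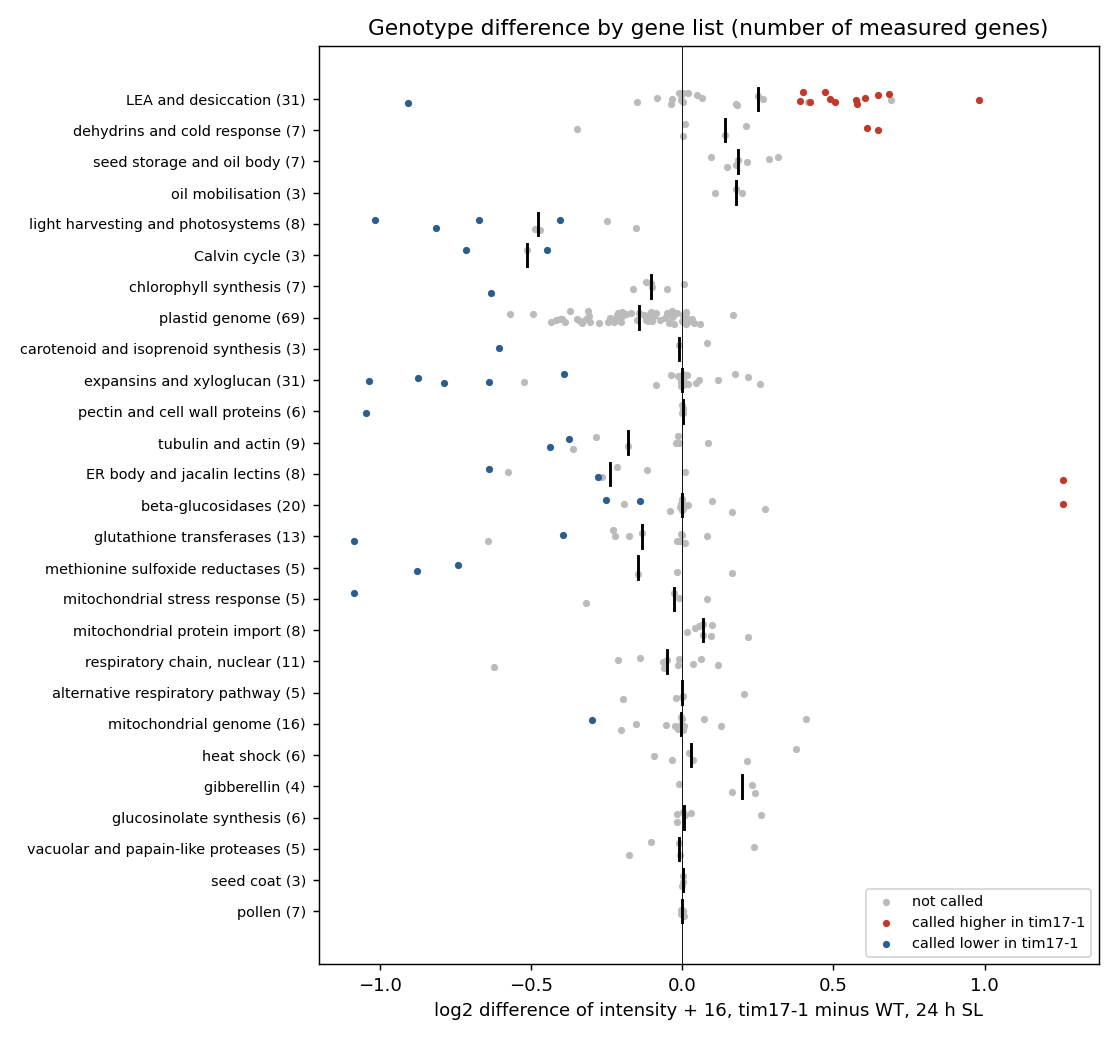
Log2 difference (tim17-1 minus WT, intensity + 16) after 24 h of light of each measured gene (points) on 27 lists, with the list's median as a black bar and called genes in red (higher in tim17-1) or blue (lower). Most red points belong to the LEA list (12 of 31), blue points are spread over many lists, with 4 of 8 light-harvesting and photosystem genes and 5 of 31 expansin and xyloglucan genes, and the 8 mitochondrial import genes lie between 0.02 and 0.22 with no call.

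Lists for other processes gave 0 calls by limma, with or without cyclic loess. These were heat shock (6 genes, median 0.03), gibberellin (4 genes, median 0.20), glucosinolate synthesis (6 genes, median 0.01) and vacuolar proteases (5 genes, median -0.01). Means were under 16 in both genotypes for 3 heat shock, 2 gibberellin and 4 glucosinolate genes, where a difference can hardly be seen. At an unadjusted p under 0.05 there were 1, 2, 1 and 1 higher genes on these lists in the order given, and leaving out tim17-1 replicate 2 or WT replicate 2 gave 1 higher heat shock call in each case. In the gibberellin list the receptor gene *GID1A* had 219, 235 and 234 in tim17-1 and 206, 177 and 193 in WT (0.24 ± 0.0702, adjusted p = 0.0656). *SLY1*, for an F-box protein that marks growth repressors for breakdown (0.23, adjusted p = 0.274), and *GID1C* (adjusted p = 0.92) were not called.

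Of the marker lists for other tissues, seed coat and pollen were near the floor of the scale and endosperm was not. The 3 seed coat markers lay between 4.37 and 6.16 on all 6 arrays and the 7 pollen markers between 3.34 and 6.45, with 0 called by limma and 0 at an unadjusted p under 0.05. Of 2 measured endosperm markers, *GH3.9* was under 4 on all 6 arrays. The other, *AT1G71250*, had 784, 897 and 947 in tim17-1 and 420.5, 574 and 620 in WT (0.70 ± 0.207, adjusted p = 0.0698), without overlap. This marker thus lay higher in tim17-1 without a call, and its part in the LEA results was not tested. The means of *AT1G71250* in tim17-1 and WT were 102 and 104 in dry seed, 4033 and 4212 after stratification, and 443 and 428 after 6 h of light. The label of the tissue as seed can be set against the storage and oil body genes, whose median log2 level was 13.29 in tim17-1 and 13.32 in WT dry seed, and 9.30 and 9.15 at 24 h.

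The 15 largest falls named by the rule included genes with no more than a locus code in the annotation. *AT2G42220* had 31.5, 43.2 and 34.6 in tim17-1 and 104, 116 and 108 in WT (-1.26 ± 0.0518, adjusted p = 6.52e-11). *AT3G16370* had 297, 365 and 397 in tim17-1 and 672, 774 and 699 in WT (-0.99 ± 0.0655, adjusted p = 5.75e-08). *AT2G45180* had 699, 1159 and 1054 in tim17-1 and 1958, 2078 and 1853 in WT (-1.03 ± 0.156, adjusted p = 0.00048). In these 3 genes the spread within tim17-1 was smaller than the distance to WT.

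*AT5G42760*, *AT1G48330*, *AT2G27420*, *AT5G64100*, *AT5G26260*, *AT4G28290*, *AT1G67330* and *AT5G38700* were lower by 1.00 to 1.41. Of the 15, 13 had a mean under 32 in both genotypes after 6 h of light. The first tim17-1 array was the lowest of the 6 in 12 of the 15, in *AT5G64100* with 230.4 against 595 and 545 on the other tim17-1 arrays and 975, 983 and 933 in WT. Over all 621 lower probe sets that array was the lowest tim17-1 array in 62.6%, against 33% of all probe sets tested, and its part in the result was not tested. Without it 433 probe sets were lower.

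The difference at 24 h was then set against the other 3 stages over all probe sets. For 238 probe sets (1.05%) the genotype difference at 24 h was above the mean difference of the other stages, and for 381 (1.68%) it was below, 2.72% in all. Of the 362 probe sets higher at 24 h, 156 were above in this sense, and of the 621 lower ones, 367 were below. The 2 tests share the arrays of 24 h, so these shares are a description. *AT3G29120* and *AT4G20230* (adjusted p = 0.0535) were the 2 of the 30 genes with the largest changes for which the difference between stages was not called.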

How the data were processed

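Total RNA was labelled with biotin from 400 ng and hybridised to 1-colour Affymetrix arrays, per the labels' protocols. The data are the linear intensity values deposited by the authors, 1 column per array, used as deposited. MAS5, RMA and Partek are named in the submitters' processing notes, and which made these values, with what scaling and background correction, is not given in the labels or the file. No detection call came with the values.

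Groups came from the sample titles, 3 arrays each. The 64 control probe sets were left out of 22810. A platform annotation updated through the gene table of TAIR10.1 gave 13513 probe sets with 1 gene, 503 with several, which were not named, and 8730 that it does not list. No sequences were used.

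Values were taken as log2(intensity + 16), which understates changes of dim genes. With limma 3.58.1 in R 4.3.3, 8 group means were fitted over 24 arrays (16 residual degrees of freedom) with empirical Bayes moderation. Single-gene adjusted p-values are limma's, with Benjamini-Hochberg adjustment over 22746 probe sets. With 3 arrays a side, the smallest two-sided p of an exact permutation test is 0.1, and none was used. The script was tested on simulated data.

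The gene lists and the naming rule were chosen with earlier results of these data known. The rule took the 15 largest rises and 15 largest falls among genes called in all fits without 1 array of 24 h SL and with cyclic loess, with no overlap, and from each list with 3 or more measured genes up to 6 called and 3 uncalled members. Values for other members and genes were chosen after being seen. The plastid and mitochondrial lists were matched by chromosome or symbol, and the methionine sulfoxide reductase list was added, after the values were seen. Lists with fewer than 3 measured genes are not reported, endosperm markers excepted. Alternatives were other offsets (1 and 64), an intensity filter at 64, cyclic loess, quantile normalization, a trend in the moderation, array weights, models without dry seed or with only the 6 arrays, a replicate block and leaving out each array.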

Additional observations from a re-analysis of the deposited data

Results flagged for a closer look

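For 55 genes named in the text, the genotype difference at 24 h SL differed from the mean genotype difference of the other 3 stages (limma, interaction contrast, Benjamini-Hochberg adjusted p under 0.05 over all probe sets). Over all probe sets 2.72% were called in this contrast. Most of the 55 genes were named for being called at 24 h, and the contrast uses the same arrays of 24 h. Their number therefore follows in large part from how they were picked and is no support. Values below are this difference of differences in log2 units, and a positive value means a larger tim17-1 minus WT difference at 24 h.

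Positive values were found mostly for genes of high dry seed level. Those of *AT2G04770* (1.54), *BGLU19* (0.98), *AT1G22600* (0.94), *AT4G31830* (0.83) and *AT5G07330* (0.80) were the largest of the genes called at 24 h. *AT5G42290* (0.78), *AT3G20340* (0.77), *AT3G58450* (0.74), *AT5G18450* (0.66), *AT2G25890* (0.65), *SIS* (0.61) and *AT4G33980* (0.60) followed. Of the LEA and dehydrin genes, *AT1G47980* (0.75), *LEA* (0.67), *AT1G72100* (0.62), *AT5G44310* (0.60), *LTI30* (0.58), *AT3G17520* (0.53), *LEA4-5* (0.46), *AT2G23110* (0.45) and *AtLEA4-1* (0.44) were above, as was *ATOEP16-2* (0.40), and *AT2G03850* (-0.92) was below. *COR47* (1.11) and *SDP1* (0.31) were above without a call at 24 h, and *COR47* was lower in tim17-1 dry seed (-1.95, adjusted p = 4e-05). The mean over 3 stages hides that *BGLU19* (0.89, adjusted p = 0.0283), *AT1G47980* (0.68, adjusted p = 0.0253), *AT3G17520* (0.46, adjusted p = 0.0486) and *AT5G18450* (0.47, adjusted p = 0.0321) were already called higher at 6 h SL. Their 24 h difference was not called against that of 6 h SL alone, with 0.36 (adjusted p = 0.907) for *BGLU19*. Of the 362 probe sets higher at 24 h, 38 were also called higher at 6 h SL, and of the 621 lower ones 31 were also called lower there.

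Negative values were found for photosynthesis and pigment genes, with *LHCB4.3* at -0.92, *PSAE-1* at -0.72, *PRK* at -0.70, *PORB* at -0.67, *CaS* at -0.99, *TROL* at -0.94, *TRXF2* at -0.24 and *AT1G74470* at -0.50. *PSAE-1* already differed by -0.69 in dry seed, where it averaged 7.65 in tim17-1 and 22.2 in WT. Of the wall and tubulin genes, *XTH18* (-1.01), *ATPMEPCRB* (-0.98), *XTH32* (-0.95) and *TUB1* (-0.38) were below. So were *GSTU25* (-1.35), *MSRB6* (-0.87), *MSRB9* (-0.63), *ATMDAR2* (-0.57), *UGT72E2* (-0.79), the lectin gene *JAL33* (-0.66) and *BGLU40* (-0.22).

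The value of *GSTU25* exceeds its 24 h difference because tim17-1 lay above WT by 0.38 after stratification and 0.44 after 6 h of light, neither of which was called. The remaining genes are known here by locus code only. They were *AT5G42760* (-1.41), *AT1G48330* (-1.27), *AT2G42220* (-1.26), *AT2G27420* (-1.22), *AT5G26260* (-1.17) and *AT5G64100* (-1.14). *AT4G28290* (-1.07), *AT5G38700* (-1.01), *AT1G67330* (-1), *AT3G16370* (-0.99) and *AT2G45180* (-0.94) were the others.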

How the results depend on the processing

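Without 1 array of 24 h SL, 186 to 521 probe sets were higher and 433 to 753 lower. Higher calls numbered 186 without WT replicate 1, and 214 and 225 without tim17-1 replicate 1 and 3. The difference between stages was above for 150 to 368 probe sets and below for 293 to 510, with 150 without tim17-1 replicate 1 or WT replicate 1 and 368 without tim17-1 replicate 2. With only the 6 arrays, 0 were higher and 4 lower (limma, 2529 at an unadjusted p under 0.05). This setting leaves fewer arrays to estimate the spread and uses the spread at 24 h alone. Among probe sets with a mean of at least 64, 403 were lower and 210 had a difference below that of the other stages, fewer being tested. With array weights 366 lay above, and the cause was not tested. The other settings (offsets of 1 and 64, loess, quantile normalization, a trend, no dry seed) kept all 4 counts within 1.5 times. Replicate numbers do not pair the samples (correlations of deviations from the group mean 0.019, -0.26 and -0.086), and with a replicate block 249 were higher and 512 lower. No named gene turned in sign where it was called with all arrays or in the other setting. Genes called in neither were not compared in sign. All 30 genes with the largest changes lost their call with only the 6 arrays, and *SIS* alone of them did so with the replicate block (adjusted p = 0.0615). Without detection calls, the distance of dim genes from background is unknown.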

Other observations

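Further called genes carry symbols that lie outside the lists. They were picked after their values were seen and are given as values only. *TROL*, for a thylakoid rhodanese-like protein that tethers an enzyme of photosynthetic electron transport, had 232, 280 and 230 in tim17-1 and 391.9, 566 and 394 in WT (-0.81 ± 0.157, limma adjusted p = 0.00456). *CaS*, for a thylakoid calcium sensing protein, had 22.9, 48.4 and 34.4 in tim17-1 and 77.2, 106 and 68.4 in WT (-0.98 ± 0.128, adjusted p = 0.000117). *HPR*, the peroxisomal hydroxypyruvate reductase gene of photorespiration, was lower by a smaller amount (-0.41 ± 0.0822, adjusted p = 0.00618).

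Of genes in redox metabolism, *ATMDAR2*, for a monodehydroascorbate reductase, had 377, 563 and 420 in tim17-1 and 703, 635 and 764 in WT (-0.63 ± 0.124, adjusted p = 0.00527). *TRXF2*, a thioredoxin gene of chloroplasts, was lower too (-0.26 ± 0.0461, adjusted p = 0.00248). *UGT72E2*, a glucosyltransferase gene acting on lignin precursors, had 24.9, 26.7 and 23.7 in tim17-1 and 55.6, 54.6 and 54.6 in WT (-0.79 ± 0.0251, adjusted p = 2.01e-12). It was 1 of the 4 probe sets called with only the 6 arrays in the model. Another was that of *AT2G34300*, with means of 219 in tim17-1 and 328 in WT, and the other 2 carry no gene name here.

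*ATOEP16-2*, for an outer envelope channel protein of plastids abundant in seed, had 5704, 4714 and 5050 in tim17-1 and 3322, 3690 and 4290 in WT (0.45 ± 0.0897, adjusted p = 0.00504). *FDH*, the mitochondrial formate dehydrogenase gene, had 255, 209 and 200.4 in tim17-1 and 140, 151 and 182 in WT (0.45 ± 0.0882, adjusted p = 0.00472), a call lost with the replicate block. *AGL67*, a MADS box gene, had 125, 137 and 105 in tim17-1 and 51.1, 53.7 and 108 in WT (0.72 ± 0.187, adjusted p = 0.033). The groups overlapped in *AGL67* through WT replicate 3, and its call was lost without tim17-1 replicate 1 or 2 or WT replicate 1 or 2 (adjusted p of up to 0.177).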
